A study of Rattus norvegicus with 8 samples.

Results

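Interleukins are secreted messengers by which immune, epithelial and stromal cells direct inflammation. They act through receptors built from a ligand-binding chain and a shared signalling chain. Soluble antagonists and decoy receptors, which bind a ligand or a receptor without passing on a signal, limit several of them. In lung, epithelial and vascular cells are known sources of alarm ligands such as IL-33, and macrophages of IL-1 beta, IL-18 and the IL-1 receptor antagonist.

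This family was described in lung tissue of rats (Rattus norvegicus) given monocrotaline (MCT, 4 libraries) and of control rats (control, 4 libraries). Monocrotaline is a plant alkaloid that injures pulmonary vessels and is used to model pulmonary hypertension. Strain, age, dose and time after treatment are not given in the sources used here. Nor is it stated that each library came from its own animal, so the p-values speak only of spread among these libraries, which may be technical. Members were the rows of the deposited gene table with a symbol of Il followed by a digit, leaving out Il25, Il1rl1, Il6, Il6r, Il6st and Il11. This gave 73 of 32623 genes. Of these, 45 had a mean of at least 0.5 FPKM in either group and are described here. FPKM divides a gene's fragments by its transcript length and the library's depth, so levels of different genes can be set side by side.

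Depth assigned to genes, estimated from the deposited counts, was 11.3 to 18.1 M read pairs per MCT library and 10.8 to 14.8 M per control library. The surfactant gene Sftpc, which defines alveolar type 2 cells and so checks the labelled tissue, averaged 15160 ± 1421 FPKM in MCT and 21540 ± 3575 FPKM in control (SD, n = 4). The libraries MCT 1 and control 1 stood apart in their airway markers. The summed level of the club and ciliated cell list was 31630 FPKM in MCT 1 and 22830 FPKM in control 1, against 9578 to 16840 FPKM in the other MCT libraries and 10530 to 14590 FPKM in the other control libraries. MCT 1 also had the lowest mast cell sum of its group, 315.9 FPKM against 1010 to 1333 FPKM in the other MCT libraries. Member counts without MCT 1 and control 1 are therefore given beside the main ones.

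In MCT lungs 4 of the 45 members rose and 7 fell in edgeR's quasi-likelihood test at a Benjamini-Hochberg adjusted p under 0.05, and 34 did not pass. The members that rose were the IL-1 receptor antagonist Il1rn, the IL-1 decoy receptor Il1r2, the ligand Il18 and the common gamma chain Il2rg. Those that fell were 6 receptor chains, Il4r, Il2rb, Il1r1, Il12rb2, Il17rb and Il17rd, and the alarm ligand Il33. These 11 genes make up 24.4% of the members, against 20.5% of all 16715 genes tested and 21.9% of the 15524 tested genes at the same level. In this fit the share called is near the background, but other tests called more members. DESeq2 called 40% of the members and 19.9% of 22400 genes with any count, low ones among them. Its share over genes at the members' level was not computed. Limma on log2(FPKM + 0.5) called 33.3% of 42 members and 22.1% of 15547 genes, both held to a filter on FPKM. By direction, 11.0% of all genes tested were higher and 9.45% lower (11.7% and 10.1% at the same level). The median log2 fold change was 0.07 over the 45 members and 0.03 over all genes tested. Without MCT 1 and control 1, 7 members were higher and 5 lower (26.7% called, against 21.1% of all genes). Without control 3 there were 8 higher (17.8%, against 8.91% of all genes), and without MCT 2 there were 4 lower (8.89%, against 5.75% of all genes).

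By role, 1 of 14 ligands was higher and 1 lower, while 1 of 26 receptor chains was higher and 6 lower. Of 4 soluble antagonists or decoys, 2 were higher and none lower. The share called was 14.3% of the ligands and 26.9% of the receptor chains, against 20.5% of all genes tested and 21.9% at the same level. By direction, 11.0% of all genes tested were higher and 9.45% lower. The antagonists and decoys are too few for a share to be read. The median log2 fold change was 0.38 for the ligands and -0.02 for the receptor chains, against 0.03 over all genes tested. The counts by role depend on the test. DESeq2 also called the ligands Il12a, Il1b and Il24 and the receptor chains Il20rb, Il27ra and Il9r higher. Limma on log2(FPKM + 0.5) also called the ligands Il12a, Il17b, Il1b and Il36b and the receptor chain Il20rb higher. For 14 of the 45 members every MCT library lay on one side of every control library, against 25.0% of all genes tested and 26.4% of those at the same level. These 14 were the 11 called members together with Il24, Il36b and Il17b. All 45 members passed the filter on low counts. Members with control values at or near 0, such as Il24 and Il36b, passed it through the MCT libraries. The mean of 0.5 FPKM was reached only in MCT by Il12a, Il9r, Il24, Il27ra and Il36b. It was reached only in control by Il12rb1, Il12rb2 and Il22ra2. The rule of entry itself favours a difference between the groups in these members. Il24, Il36b and Il12rb2 are among the 14, so their separation lends no support of its own.

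**Figure D1:**
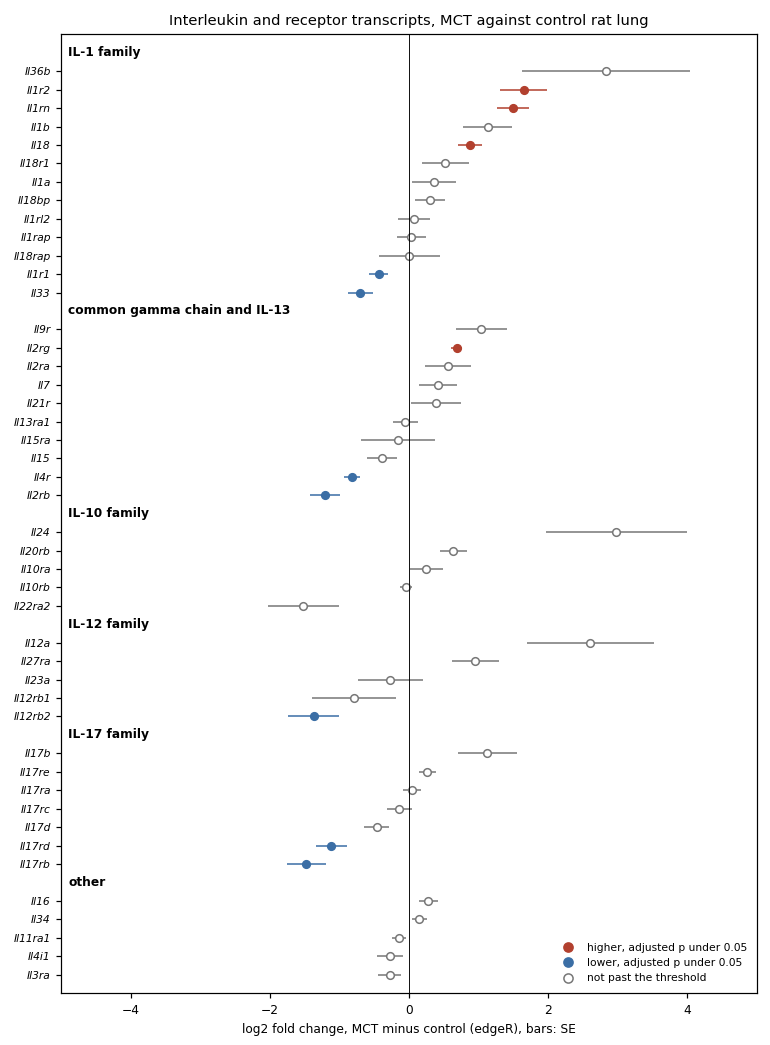
Log2 fold change of each of the 45 members, MCT minus control, with its standard error, grouped by cytokine family; filled points passed an adjusted p under 0.05 in edgeR (4 higher, 7 lower). The widest bars belong to Il36b, Il24 and Il12a, whose control libraries held few reads.

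Promoter sequences are shown for 3 members that rose (Il1rn, Il18, Il2rg) and 1 that fell (Il4r), as examples chosen after their values were seen. Each kept an adjusted p under 0.05 in all 19 alternative analyses and has a single start in the RefSeq table (build GRCr8), as 7 of the 11 called members do. The table held a promoter for 36 of the 45 members. Each window runs from 250 bases before to 50 bases after the gene's start, 5′ to 3′ on the gene's strand. Capitals mark matches to GGG and CC parted by 5 bases of any kind (NF-kB), TTCNNNGAA (STAT) and TGANTCA (AP-1), searched on both strands. No match overlapped another.
Il1rn (chr3:27520072-27520371, plus strand): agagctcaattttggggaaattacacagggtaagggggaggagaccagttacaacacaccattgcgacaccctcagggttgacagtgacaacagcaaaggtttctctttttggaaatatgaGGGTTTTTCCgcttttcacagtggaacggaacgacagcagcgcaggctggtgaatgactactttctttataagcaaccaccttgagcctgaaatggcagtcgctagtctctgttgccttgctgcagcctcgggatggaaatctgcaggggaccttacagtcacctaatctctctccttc
Il18 (chr8:59801822-59802121, plus strand): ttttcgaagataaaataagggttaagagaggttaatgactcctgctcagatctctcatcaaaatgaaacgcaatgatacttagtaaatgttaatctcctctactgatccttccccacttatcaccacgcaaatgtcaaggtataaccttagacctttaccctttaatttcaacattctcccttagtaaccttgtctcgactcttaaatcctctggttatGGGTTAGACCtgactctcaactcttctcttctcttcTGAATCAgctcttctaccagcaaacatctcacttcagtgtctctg
Il2rg (chrX:70438951-70439250, minus strand): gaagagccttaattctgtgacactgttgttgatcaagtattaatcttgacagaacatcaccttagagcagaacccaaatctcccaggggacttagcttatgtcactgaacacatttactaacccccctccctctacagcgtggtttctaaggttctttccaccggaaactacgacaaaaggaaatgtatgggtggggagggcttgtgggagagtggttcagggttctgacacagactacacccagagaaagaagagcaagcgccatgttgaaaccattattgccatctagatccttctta
Il4r (chr1:189545525-189545824, plus strand): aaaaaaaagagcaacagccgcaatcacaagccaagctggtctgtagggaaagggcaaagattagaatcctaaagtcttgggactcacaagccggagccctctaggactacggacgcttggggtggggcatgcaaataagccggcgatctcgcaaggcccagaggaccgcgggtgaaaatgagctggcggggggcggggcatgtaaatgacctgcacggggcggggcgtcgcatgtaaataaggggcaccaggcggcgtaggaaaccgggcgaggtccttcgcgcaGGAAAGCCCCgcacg

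The NF-kB letters had 1 match each in the Il1rn, Il18 and Il4r windows, from base -129 to -120, -31 to -22 and 36 to 45 relative to the start, and none in that of Il2rg. They are loose, since 47.3% of the 33469 RefSeq promoter windows hold them. The AP-1 letters, held by 7.33% of windows, matched in Il18 from base 6 to base 12 after the start. The STAT letters, held by 8.87% of windows, matched in none of these windows. The Il4r window was rich in bases G and C (59.7%, against a median of 51.7% over all windows) and held 23 CpG pairs, while those of Il1rn, Il18 and Il2rg held 7, 4 and 4 at 49.0%, 39.3% and 45.7% G and C. A match describes letters only and says nothing of binding.

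Of the 13 IL-1 family members, 3 were higher and 2 lower, with a median log2 fold change of 0.35. Counts by cytokine family, here and below, stand against 11.0% of all genes tested higher and 9.45% lower. In either direction, 20.5% of all genes tested were called, and 21.9% of those at the members' level. Each family is small, so no share is read from it. Il1rn (chromosome 3, 1452644 to 1468614, Rnor_6.0, the build of all gene positions here) encodes a secreted antagonist that occupies the IL-1 receptor without signalling. It was at 21.6, 31.2, 17.6 and 15.6 FPKM in MCT libraries 1 to 4, against 6.86, 7.35, 9.61 and 6.55 FPKM in control libraries 1 to 4. Every MCT library lay above every control library, and MCT 2 was the highest. The log2 fold change was 1.5 (SE 0.23, edgeR adjusted p 0.00266).

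Il1r2 (chromosome 9, 46840992 to 46881264) encodes a decoy receptor that binds IL-1 but lacks a signalling tail. It was at 1.88, 2.43, 1.11 and 1.86 FPKM in MCT, against 0.82, 0.51, 0.44 and 0.53 FPKM in control. The groups did not overlap, although MCT 3 was closest to control 1. This gave a log2 fold change of 1.65 (SE 0.34, adjusted p 0.00993 in edgeR), from 151 read pairs over the MCT libraries and 45 over the control libraries.

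Il1r1 (chromosome 9, 46962288 to 47036670) encodes the signalling receptor of IL-1. It was at 7.98, 10.9, 10.03 and 9.86 FPKM in MCT, against 11.8, 13.7, 10.99 and 16.02 FPKM in control. The groups were apart by a narrow margin, MCT 2 against control 3. Its log2 fold change was -0.44 (SE 0.13, edgeR adjusted p 0.0432). This call was lost in 12 of 19 alternative analyses (adjusted p 0.0181 to 0.119), among them those without any 1 MCT library, without control 2, without control 4 and without both libraries numbered 1.

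The ligands of this receptor did not pass the test. Il1b, the inducible ligand of macrophages, was at 12.4, 12.5, 8.38 and 9.2 FPKM in MCT, against 8.82, 2.51, 4.5 and 3.62 FPKM in control. Control 1 lay among the MCT values and the other control libraries lay below them. The log2 fold change of Il1b was 1.13 (SE 0.35, edgeR adjusted p 0.0521), and it passed without control 1 and in 8 other alternatives (adjusted p 0.00589 to 0.126 over all of them). Il1a, the ligand held in cells until damage, averaged 4.11 ± 1.49 FPKM in MCT and 3.21 ± 1.02 FPKM in control (SD, n = 4). The shared accessory chain Il1rap averaged 4.38 ± 0.76 FPKM in MCT and 4.26 ± 1.12 FPKM in control.

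Il18 (chromosome 8, 54993859 to 55016299) encodes a ligand stored as a precursor and released after cleavage by caspase. It was at 32.7, 39.2, 27.5 and 27.4 FPKM in MCT, against 13.6, 21.1, 16.3 and 17.9 FPKM in control. All MCT libraries were above all control libraries. On the log2 scale the change was 0.88 (SE 0.17, edgeR adjusted p 0.0077). The opposite-strand gene Bco2 overlaps Il18 in the table and averaged 4.95 FPKM in MCT and 2.85 FPKM in control (log2 fold change 0.80, edgeR adjusted p 0.0461). Since strand handling is not given, reads of the overlap cannot be told apart. The soluble IL-18 binding protein Il18bp averaged 10.7 ± 0.97 FPKM in MCT and 8.69 ± 2.58 FPKM in control and did not pass. Of the IL-18 receptor chains, Il18r1 averaged 3.22 FPKM in MCT and 2.25 FPKM in control, and Il18rap 0.848 FPKM in MCT and 0.848 FPKM in control. Neither passed, although Il18r1 did without control 3 (edgeR adjusted p 0.0427).

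Il33 (chromosome 1, 248132090 to 248147029), which encodes a nuclear alarm ligand released by injured cells, had the highest mean of all members in both groups. It was at 48.2, 45.8, 49.1 and 74.0 FPKM in MCT, against 111, 74.97, 77.2 and 89.8 FPKM in control. MCT 4 came close to control 2, and the other MCT libraries were well below all control libraries. The log2 fold change was -0.70 (SE 0.18, edgeR adjusted p 0.0224). The call was lost without MCT 2, without MCT 3, without control 4 and without both libraries numbered 1, with adjusted p 0.00107 to 0.0832 over 19 alternatives.

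The remaining IL-1 family members were low. Il36b, an epithelial ligand, was at 0.77, 0.57, 1.11 and 0.56 FPKM in MCT, and at 0.38 FPKM in control 1 and 0 in the other control libraries. This rests on 31 read pairs over the MCT libraries and 4 over the control libraries. Its edgeR adjusted p was 0.133. It passed without control 1, the only control library with a value (adjusted p 0.00955), and in 5 of the other alternatives (adjusted p up to 0.254 over all 17). The IL-36 receptor chain Il1rl2 averaged 1.68 ± 0.34 FPKM in MCT and 1.6 ± 0.42 FPKM in control.

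**Figure D2:**
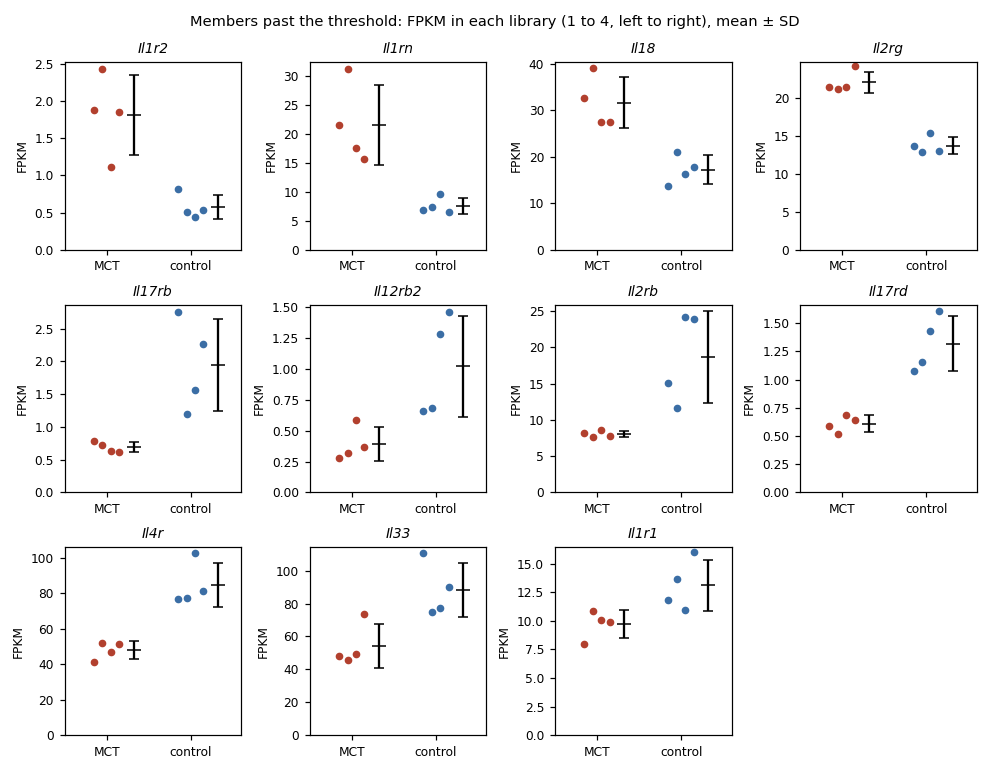
FPKM of the 11 members past the threshold in MCT libraries 1 to 4 and control libraries 1 to 4 (points, left to right), with mean and SD (bars, n = 4). The groups do not overlap in any panel, and Il1r1 and Il33 show the narrowest gaps.

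The balance of an antagonist or decoy and its counterpart was compared with 1 ratio per library. The ratio of Il1r2 to Il1r1 was 0.236, 0.224, 0.112 and 0.19 in MCT, against 0.0702, 0.038, 0.0409 and 0.0337 in control. All MCT ratios were above all control ratios, with a log2 difference of 2.06. Because the groups were already apart for Il1r2 and, in the other direction, for Il1r1, this separation was fixed by those values. The exact two-sided permutation p of 0.0286, the smallest that 4 against 4 libraries allows (0.0857 adjusted over the 3 ratios), therefore adds nothing to the calls of both genes.

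The ratio of Il1rn to Il1b was 1.74, 2.5, 2.09 and 1.7 in MCT, against 0.778, 2.92, 2.13 and 1.81 in control. The groups overlapped throughout (log2 difference 0.21, exact permutation p 0.829, adjusted 0.829), and without control 1 the difference was -0.18. The ratio of Il18bp to Il18 was 0.366, 0.274, 0.386 and 0.351 in MCT, against 0.723, 0.267, 0.709 and 0.432 in control. Control 2 lay just below all MCT libraries and the other control libraries lay above them (log2 difference -0.53, exact permutation p 0.229, adjusted 0.343). Without control 2, the library that kept the groups from separating, the difference was -0.82. Il13ra2, the decoy of IL-13, averaged below 0.5 FPKM in both groups and its ratio was not tested.

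**Figure D3:**
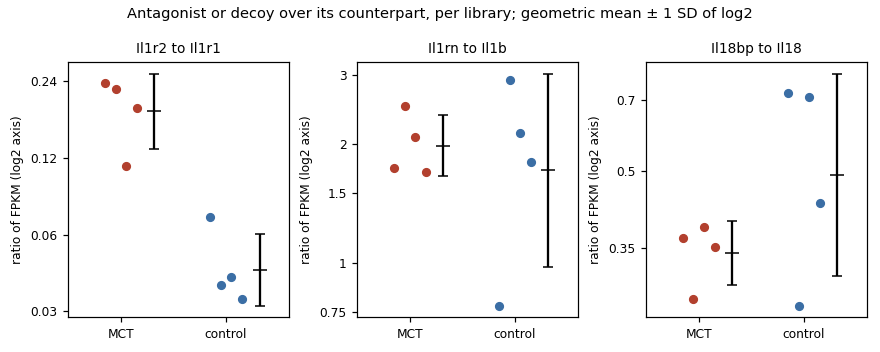
Ratio of FPKM values of an antagonist or decoy to its counterpart in each MCT and control library (points, log2 axis), with geometric mean and 1 SD of the log2 ratio (bars, n = 4). Only for Il1r2 to Il1r1 are the groups apart (0.112 to 0.236 in MCT, 0.0337 to 0.0702 in control).

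The common gamma chain and IL-13 group had 10 members, of which 1 was higher and 2 lower. Il2rg (chromosome X, 71162585 to 71169865) encodes the chain shared by the receptors of IL-2, IL-4, IL-7, IL-9, IL-15 and IL-21. It was at 21.5, 21.2, 21.4 and 24.1 FPKM in MCT, against 13.6, 12.9, 15.3 and 13 FPKM in control. The libraries of each group lay close together and the groups were well apart. This gave a log2 fold change of 0.68 (SE 0.08, edgeR adjusted p 0.00103), the smallest p among the members.

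Il2rb (chromosome 7, 119701251 to 119716238) encodes the signalling chain that Il2rg joins in the receptors of IL-2 and IL-15, on natural killer (NK) and T cells. It was at 8.22, 7.67, 8.63 and 7.84 FPKM in MCT, against 15.1, 11.6, 24.2 and 23.9 FPKM in control. MCT libraries were tightly grouped, and control libraries spread over a wide range above them. Its log2 fold change was -1.20 (SE 0.21, edgeR adjusted p 0.00532). So these partner chains moved in opposite directions. The third chain, Il2ra, averaged 1.17 ± 0.25 FPKM in MCT and 0.798 ± 0.38 FPKM in control and did not pass, but did without control 3 (edgeR adjusted p 0.0439).

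Markers of NK and cytotoxic cells moved with Il2rb. Of 10 tested, 6 were lower and none higher. Their summed level was 41.8 to 72.5 FPKM in MCT and 88.5 to 133 FPKM in control, and none was at 0 in all libraries. Prf1, the perforin gene, averaged 6.52 ± 1.54 FPKM in MCT and 26.2 ± 4.11 FPKM in control. Of 13 T cell markers 1 was higher and 1 lower, with sums of 65.3 to 73.1 FPKM in MCT and 46.3 to 91 FPKM in control. The part of these cells in the change of Il2rb was not tested. In bulk tissue, fewer cells of a type and less RNA per cell cannot be told apart.

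Il4r (chromosome 1, 196942364 to 196967220) encodes the alpha chain that binds IL-4 and, with Il13ra1, IL-13. It was at 41.3, 51.8, 47 and 51.5 FPKM in MCT, against 76.6, 77.3, 103 and 80.9 FPKM in control. No library of a group came near the other group. On the log2 scale the change was -0.82 (SE 0.12, edgeR adjusted p 0.00196). Its partner Il13ra1 averaged 19.1 ± 4.64 FPKM in MCT and 19.8 ± 2.66 FPKM in control and did not pass. The ligands Il4 and Il13 were near 0: Il4 averaged 0 FPKM in MCT and 0.138 FPKM in control, and Il13 averaged 0 FPKM in MCT and 0.015 FPKM in control.

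The other members of this group did not pass. Il15, a survival factor of NK cells, averaged 13.2 ± 3.67 FPKM in MCT and 17.4 ± 2.14 FPKM in control, with MCT 1 at 18.6 FPKM and the other MCT libraries at 10.5 to 12.6 FPKM. Without MCT 1 it was lower at an edgeR adjusted p of 0.0308. Il7, made by stroma for lymphocyte survival, averaged 1.83 ± 0.44 FPKM in MCT and 1.37 ± 0.12 FPKM in control. Il9r, a receptor also found on mast cells, was at 0.33, 0.87, 0.82 and 0.46 FPKM in MCT, against 0.31, 0.17, 0.36 and 0.36 FPKM in control (log2 fold change 1.04, edgeR adjusted p 0.0762). Il9r passed in DESeq2 and without MCT 1 (adjusted p 0.03 to 0.197 over all alternatives). Of 11 mast cell markers 9 were higher and 2 lower, with sums of 315.9 to 1333 FPKM in MCT and 153.4 to 172.1 FPKM in control. Their part in the values of Il9r was not tested. Il21r and Il15ra, the chains for IL-21 and IL-15, had log2 fold changes of 0.39 and -0.16. Without control 3, Il21r was higher at an edgeR adjusted p of 0.0445.

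Of 7 IL-17 family members 2 were lower, both receptor chains. Il17rb (chromosome 16, 6064288 to 6077978) encodes the chain that binds IL-17B and IL-25. It was at 0.79, 0.73, 0.63 and 0.62 FPKM in MCT, against 2.76, 1.19, 1.57 and 2.27 FPKM in control. The MCT libraries lay in a narrow band below all control libraries. The log2 fold change was -1.48 (SE 0.28, edgeR adjusted p 0.00646), from 122 read pairs in MCT and 319 in control. Markers of tuft cells, chemosensory epithelial cells, moved with it: 5 of 6 tested were lower, with sums of 8.3 to 19.8 FPKM in MCT and 38.5 to 82 FPKM in control, and none was at 0 in all libraries. Of 8 markers of group 2 innate lymphoid cells 1 was higher, Hpgds, which is also in the mast cell list, and 2 were lower, Gata3 and Klrg1. The sums of these 8 markers overlapped (20.9 to 42.3 FPKM in MCT, 13.6 to 29.3 FPKM in control). The part of either cell type was not tested.

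Il17rd (chromosome 16, 2670618 to 2731808) encodes a member of the receptor family also known to restrain fibroblast growth factor signalling. It was at 0.59, 0.52, 0.69 and 0.64 FPKM in MCT, against 1.08, 1.16, 1.43 and 1.61 FPKM in control. All MCT libraries were below all control libraries. This gave a log2 fold change of -1.12 (SE 0.22, edgeR adjusted p 0.00817).

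The more abundant chains of this family did not pass. Il17ra, the shared chain, averaged 51.8 ± 2.89 FPKM in MCT and 50.2 ± 8.42 FPKM in control. Il17rc, its partner for IL-17A and IL-17F, averaged 12.3 ± 2.5 FPKM in MCT and 13.6 ± 2.84 FPKM in control. Il17re, the chain for IL-17C, averaged 13.5 ± 2.06 FPKM in MCT and 11.2 ± 1.08 FPKM in control. Of the ligands, Il17b was at 1.48, 1.24, 1.95 and 0.82 FPKM in MCT, against 0.46, 0.64, 0.58 and 0.8 FPKM in control. The groups of Il17b were apart by a narrow margin, MCT 4 against control 4, and its edgeR adjusted p was 0.0968. Il17b passed in limma with pseudocounts of 0.5 and 1 (adjusted p 0.0491 to 0.257 over all alternatives). Il17d averaged 5.81 ± 0.69 FPKM in MCT and 8.03 ± 1.9 FPKM in control (log2 fold change -0.47, edgeR adjusted p 0.105). Il17a and Il17c were listed at 0 in every library.

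Of 5 IL-12 family members 1 was lower. Il12rb2 (chromosome 4, 98052842 to 98141482) encodes the chain specific to the IL-12 receptor of NK and T cells. It was at 0.28, 0.32, 0.59 and 0.37 FPKM in MCT, against 0.66, 0.68, 1.28 and 1.46 FPKM in control. MCT 3 came close to control 1, and control 3 and control 4 were the highest. Its log2 fold change was -1.37 (SE 0.37, edgeR adjusted p 0.0283), from 72 read pairs in MCT and 164 in control. The call was lost in 9 of 19 alternatives, among them those without MCT 1, MCT 2, MCT 4, control 3 or control 4 (adjusted p 0.00264 to 0.0794 over all of them). The NK markers given with Il2rb moved with it too.

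Il12a, the alpha chain of IL-12, was at 0.5, 1.1, 2.26 and 1.74 FPKM in MCT, against 0.19, 0.15, 0.55 and 0 FPKM in control. Control 3 overlapped MCT 1. It did not pass (log2 fold change 2.61, SE 0.92, edgeR adjusted p 0.0765), but did without control 3 and in 6 other alternatives (adjusted p 0.0122 to 0.176 over all of them). Il23a, the chain specific to IL-23, averaged 0.978 ± 0.72 FPKM in MCT and 1.18 ± 0.23 FPKM in control. Il27ra, the IL-27 receptor, averaged 0.795 ± 0.33 FPKM in MCT and 0.412 ± 0.07 FPKM in control. It passed in DESeq2 and without MCT 3 (adjusted p 0.0389 to 0.192 over all alternatives). The opposite-strand gene Palm3 overlaps it, at 0.47 FPKM in MCT and 0 in control, so its level is uncertain. Il12rb1, the chain shared by the IL-12 and IL-23 receptors, averaged 0.45 ± 0.2 FPKM in MCT and 0.787 ± 0.71 FPKM in control, with control 3 at 1.83 FPKM.

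None of the 5 IL-10 family members passed; Il20rb, Il24 and Il22ra2 had an unadjusted p under 0.05. Il20rb, a receptor chain of epithelium for IL-20 and IL-24, was at 10.6, 15.6, 15.4 and 17.2 FPKM in MCT, against 7.13, 11.6, 10.2 and 8.66 FPKM in control. MCT 1 lay within the control range and the other MCT libraries above it. On the log2 scale the change was 0.64 (SE 0.20, edgeR adjusted p 0.0502), and it passed without MCT 1, without control 2 and in 8 other alternatives (adjusted p 0.0198 to 0.127 over all of them). Its ligand Il24 was at 1.04, 0.44, 0.39 and 0.39 FPKM in MCT, against 0.15, 0.1, 0 and 0 FPKM in control, from 36 read pairs in MCT and 5 in control (edgeR adjusted p 0.0679). Il24 passed in DESeq2 and in limma without a filter (adjusted p 0.0185 to 0.147 over all alternatives). Il22ra2, a soluble receptor that traps IL-22, was at 0.37, 0.17, 0.68 and 0.23 FPKM in MCT, against 1.62, 0.93, 1.17 and 0.47 FPKM in control (log2 fold change -1.52, edgeR adjusted p 0.0647). It passed without MCT 3, without control 4, with the replicate block and in DESeq2 (adjusted p 0.0161 to 0.185 over all alternatives). Il10rb, the shared chain, averaged 31.5 ± 2.3 FPKM in MCT and 32.5 ± 2.26 FPKM in control, and Il10ra, the IL-10 binding chain of leukocytes, averaged 6.26 ± 1.19 FPKM in MCT and 5.26 ± 1.79 FPKM in control.

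**Figure D4:**
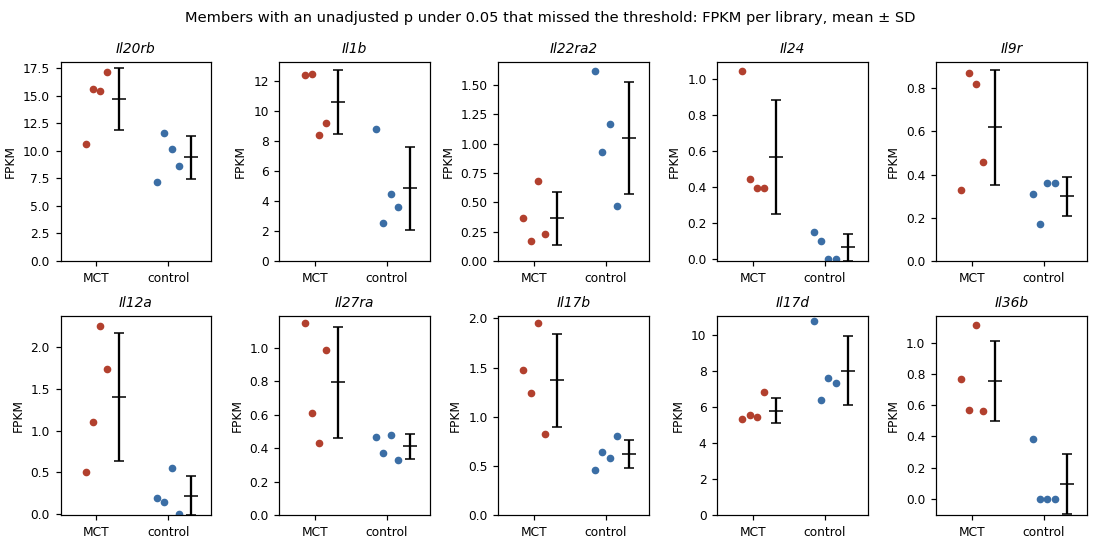
FPKM of the 10 members with an unadjusted p under 0.05 that missed the adjusted threshold, in each MCT and control library (points, left to right 1 to 4), with mean and SD (bars, n = 4). Control 1 overlaps the MCT values of Il1b, control 3 overlaps those of Il12a, and Il24 and Il36b are at 0 in 2 and 3 control libraries.

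Among the other 5 members none passed. Il34, a ligand of the macrophage receptor Csf1r, averaged 35.7 ± 4.41 FPKM in MCT and 32.2 ± 2.87 FPKM in control. Il11ra1, the IL-11 receptor chain, averaged 39.3 ± 3.16 FPKM in MCT and 43.3 ± 5.05 FPKM in control. Il3ra averaged 28 ± 2.71 FPKM in MCT and 34.1 ± 8.76 FPKM in control. It overlaps the opposite-strand gene Asmtl, at 32 FPKM in MCT and 31.7 FPKM in control, so its level is uncertain. Il16, a lymphocyte attractant, had a log2 fold change of 0.28, and Il4i1, which encodes a secreted amino acid oxidase and no interleukin, one of -0.27.

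In order of level, Il33 had the highest mean in both groups. Il17ra was above Il33 in MCT 1, MCT 2 and MCT 3, and Il4r was above it in MCT 2, control 2 and control 3. By mean Il33 was followed in control by Il4r and Il17ra, and in MCT by Il17ra and Il4r. Neighbours in this order, Il33 and Il4r in control and Il33 and Il17ra in MCT, differed by less than the SD of Il33. Below them came Il11ra1, Il34, Il3ra and Il10rb, at group means of 28 to 43.3 FPKM, joined in MCT by Il18 at 31.7 FPKM. Of the 28 members under 0.5 FPKM, 11 were listed at 0 in all 8 libraries: Il2, Il3, Il9, Il17a, Il17c, Il20, Il21, Il36a, Il36g, Il1f10 and Il1rapl1. Another 17 had a value above 0 in some library: Il4, Il5, Il10, Il13, Il19, Il22, Il27, Il12b, Il17f, Il36rn, Il5ra, Il13ra2, Il20ra, Il22ra1, Il23r, Il31ra and Il1rapl2. Just under the limit were Il13ra2 (0.443 FPKM in MCT, 0.117 in control), Il22ra1 (0.438 in MCT, 0.295 in control) and Il12b (0.335 in MCT, 0.412 in control). Just above it were Il24 (0.565 in MCT, 0.0625 in control), Il9r (0.62 in MCT, 0.3 in control) and Il36b (0.752 in MCT, 0.095 in control).

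Genes that work beside these ligands and receptors were also counted. Of 92 tested over all the lists, 11 were higher and 11 lower, which is 23.9% against the 20.5% of all genes tested, with a median log2 fold change of 0.04. Those lower numbered 5 without MCT 2 or without control 3, and 7 without MCT 1, without MCT 3 or without control 2. Those higher numbered 7 without MCT 2 or without control 2. Without MCT 2 the share was 13% of these genes and 12.8% of all genes. The counts of single lists stand against 11.0% of all genes tested higher and 9.45% lower, and each list is small. In the JAK-STAT list 5 of 22 fell and none rose. Stat6, which carries the signal of Il4r, averaged 33.4 ± 3.51 FPKM in MCT and 46.4 ± 4.01 FPKM in control (log2 fold change -0.47, edgeR adjusted p 0.00727). Stat5b, which helps carry that of Il2rb, averaged 14.3 ± 2.1 FPKM in MCT and 19.2 ± 1.89 FPKM in control (edgeR adjusted p 0.0307). Stat5a, Jak1 and Jak3 of the same list did not pass (log2 fold changes -0.11, -0.01 and 0.24, edgeR adjusted p 0.521, 0.959 and 0.467). Socs7, a suppressor of cytokine signalling, averaged 3.24 ± 0.53 FPKM in MCT and 5.54 ± 0.78 FPKM in control (edgeR adjusted p 0.0128).

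Of 23 genes of MyD88 signalling and the inflammasome, which relay IL-1 signals and process IL-1 beta and IL-18, 2 rose and 2 fell. Over all genes tested, 11.0% rose and 9.45% fell. The inflammasome sensor Nlrp3 was at 4.88, 5.75, 5.35 and 3.69 FPKM in MCT, against 2.18, 2.49, 2.62 and 2.36 FPKM in control (log2 fold change 1.02, edgeR adjusted p 0.00251). Its adaptor Pycard averaged 28.3 ± 4.08 FPKM in MCT and 16.1 ± 4.56 FPKM in control (edgeR adjusted p 0.0327). Sigirr, an inhibitory receptor of the IL-1 family, averaged 16.4 ± 1.08 FPKM in MCT and 21.8 ± 1.98 FPKM in control (edgeR adjusted p 0.0125), and Peli2, an IRAK-binding ubiquitin ligase, 3.3 ± 0.74 FPKM in MCT and 5.45 ± 1.25 FPKM in control (edgeR adjusted p 0.0356). The other inflammasome genes of the list did not pass, among them, chosen after their values were seen, Casp1, the caspase that cleaves IL-18, at 20.6 ± 2.65 FPKM in MCT and 23.1 ± 3.24 FPKM in control, and the pore-forming Gsdmd, at 25.1 ± 3.41 FPKM in MCT and 25.7 ± 2.35 FPKM in control. In the IL-17 signalling list 1 of 14 fell, the NF-kB inhibitor Nfkbia, at 138 ± 31.7 FPKM in MCT and 246 ± 72.8 FPKM in control (edgeR adjusted p 0.0404).

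Of 17 receptor and ligand partners without an Il symbol, 4 rose and 1 fell, against 11.0% and 9.45% of all genes tested. Csf2rb, the beta chain shared by the IL-3, IL-5 and GM-CSF receptors, was at 9.23, 30.8, 24.7 and 21.8 FPKM in MCT, against 4.69, 4.73, 7.54 and 3.51 FPKM in control. All MCT libraries were above all control libraries, with MCT 1 the lowest of its group. The log2 fold change was 2.07 (SE 0.37, edgeR adjusted p 0.00689). Csf1, which shares its receptor with Il34, averaged 20.9 ± 3.66 FPKM in MCT and 11.8 ± 0.85 FPKM in control (edgeR adjusted p 0.00264). Csf2ra, the GM-CSF binding chain, also rose (log2 fold change 0.69, edgeR adjusted p 0.0165). Cntfr, a receptor chain for a neurotrophic cytokine, fell (log2 fold change -0.85, edgeR adjusted p 0.00962).

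Of 16 genes known to respond to IL-4 and IL-13, 5 rose and 2 fell, while Il4r fell. Over all genes tested, 11.0% rose and 9.45% fell. Clec10a, a lectin of macrophages and dendritic cells, averaged 43.4 ± 7.6 FPKM in MCT and 15.2 ± 2.93 FPKM in control (log2 fold change 1.5, edgeR adjusted p 0.000652). Chia, a chitinase, averaged 164 ± 49.3 FPKM in MCT and 70.7 ± 20.6 FPKM in control (edgeR adjusted p 0.0134), and the eosinophil attractant Ccl24 averaged 4.5 ± 1.62 FPKM in MCT and 1.3 ± 0.46 FPKM in control (edgeR adjusted p 0.00793). Those that fell were Ccl11, another eosinophil attractant (log2 fold change -0.99, edgeR adjusted p 0.00498), and the transcription factor Gata3 (-0.67, edgeR adjusted p 0.0415). Members of this list are also expressed by macrophages, epithelium or stroma without these ligands.

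Cell type markers moved beside the members that rose. Marker counts here and above stand against 11.0% of all genes tested higher and 9.45% lower. Of 13 macrophage and monocyte markers 9 were higher and none lower, with sums of 741 to 1219 FPKM in MCT and 320.4 to 508 FPKM in control. Of 11 neutrophil markers 2 were higher, Ncf1 and Trem1, and the sums, of which Lcn2 was the largest part in every library, overlapped (194.5 to 2145 FPKM in MCT, 106 to 481 FPKM in control), with Fpr1 at 0 in all libraries. Of 10 dendritic cell markers 3 were higher, with sums of 98.4 to 134 FPKM in MCT and 67.1 to 94 FPKM in control. Mast cell sums, given with Il9r, were also higher in every MCT library. So were B and plasma cell sums (433.6 to 569 FPKM in MCT, 349.5 to 420.4 FPKM in control), with 1 of 10 markers higher and none lower. Lymphatic endothelial sums were too (666.9 to 1046 FPKM in MCT, 501.2 to 606.9 FPKM in control), with 3 of 6 markers higher and 1 lower. T cell sums overlapped and NK sums were lower, as given with Il2rb. The part of any of these cells in Il1rn, Il1r2, Il18 and Il2rg was not tested. Beside Il33, 4 of 9 endothelial markers were lower and 1 higher (sums of 409.9 to 507 FPKM in MCT, 707 to 822 FPKM in control), and 5 of 9 alveolar type 2 markers were lower and 1 higher (sums of 20850 to 27060 FPKM in MCT, 28960 to 37490 FPKM in control). Of 7 alveolar type 1 markers 2 were lower (sums of 2715 to 3300 FPKM in MCT, 3472 to 3821 FPKM in control). Fibroblast and mesenchyme markers went the other way, with 4 of 8 higher and none lower (sums of 1123 to 1878 FPKM in MCT, 651 to 796 FPKM in control). The part of these cells in Il33 was not tested either.

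**Figure D5:**
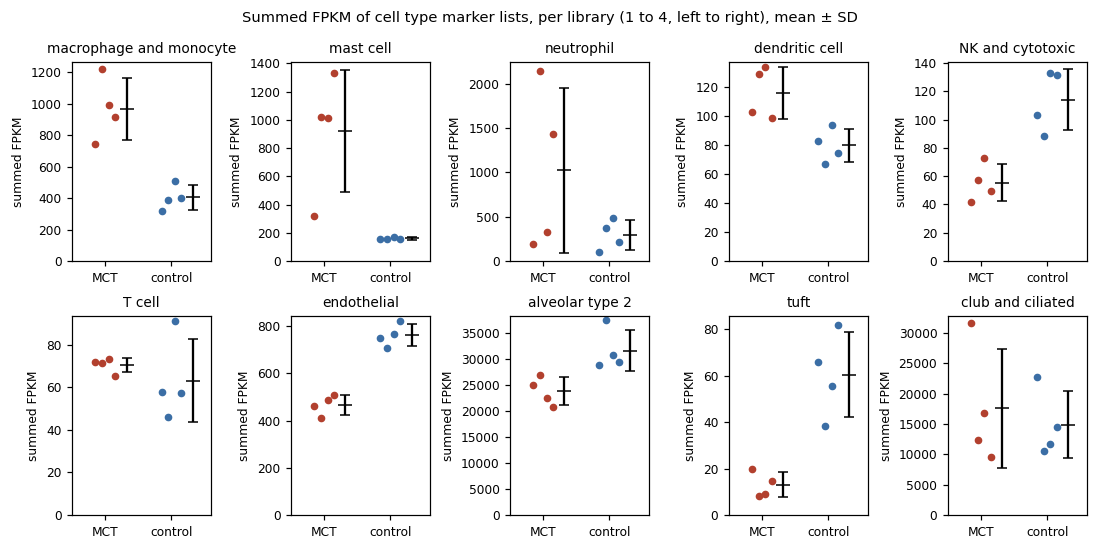
Summed FPKM of 10 cell type marker lists in each MCT and control library (points, left to right 1 to 4), with mean and SD (bars, n = 4). Macrophage, mast and dendritic cell sums are higher in every MCT library and NK, endothelial, alveolar type 2 and tuft cell sums lower, while neutrophil, T cell and airway sums overlap.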

How the data were processed

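RNA sequencing of rat lung gave 4 MCT and 4 control libraries, grouped by their labels. Per the submitters' processing notes, cutadapt 1.9, HISAT2 2.0.4, StringTie 1.3.4d and edgeR were used with build Rnor_6.0, with no order or settings given. The deposited table holds, per the file headers, an estimated count and an FPKM value for each gene and library. The deposited estimated counts are whole numbers, so the main fit needed no rounding. Their low values recur in steps of about 3.67 units, which was taken as the worth of 1 read pair. The sources used here do not state this, so all read pair numbers are estimates. The fit and its filter took in units and not reads. With counts divided by that worth and rounded, 7 members were higher and 7 lower, against 4 and 7 in the main fit. This was 33.3% of 42 members, against 23.5% of all genes. Strand handling and the treatment of reads shared by paralogs are not given in the sources used here.

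All genes that passed filterByExpr (minimum count 10) were fitted with edgeR 4.0.16 (R 4.3.3) by the quasi-likelihood test, with TMM scaling and robust dispersions, and p-values were adjusted by Benjamini-Hochberg over all 16715 genes. The step was tested on simulated data. Ratios were compared on log2 of FPKM plus 0.01 by an exact two-sided permutation test. Limma 3.58.1, DESeq2 1.42.0, other scalings, filters and pseudocounts, a replicate block and each library left out were alternatives. Leaving out both libraries numbered 1 was chosen after seeing the data. No libraries of a group were duplicates. Every called member was given in full, uncalled members by means, and from each signalling list up to 3 called genes per direction with the smallest p. Members and lists were chosen with earlier results of these data known. Promoters came from RefSeq (GRCr8).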

Additional observations from a re-analysis of the deposited data

Results flagged for a closer look

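For 10 of 96 sets of 4 libraries of a reported member or ratio, 1 library lay far from the others of its group by Dixon's ratio of gap to range on log2 CPM (above 0.829). Chance gives about 1 in 20, or 4.8 sets. In MCT, Il33 had a ratio of 0.924, with MCT 4 at 74.0 FPKM and the others at 45.8 to 49.1. Il2rg had 0.836, with MCT 4 at 24.1 FPKM and the others at 21.2 to 21.4. MCT 1 was the library apart for Il17rc (0.935, at 16.1 FPKM against 10.8 to 11.5), Il21r (0.921, at 4.64 against 3.22 to 3.25) and Il24 (0.845, at 1.04 against 0.39 to 0.44). In control, control 3 was apart for Il4r (0.841, at 103 FPKM against 76.6 to 80.9), Il1a (0.884, at 4.73 against 2.53 to 2.79) and Il2ra (0.892, at 1.37 against 0.58 to 0.64). Control 4 was apart for Il15ra (0.899, at 0.21 FPKM against 0.91 to 1.06), and control 1 for Il36b (1.0, at 0.38 FPKM against 0 in the others).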

How the results depend on the processing

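Of the 11 called members, 8 kept their direction and an adjusted p under 0.05 under all 19 alternatives (Il1rn, Il1r2, Il18, Il2rg, Il2rb, Il4r, Il17rb and Il17rd). Members higher in MCT, 4 in the main analysis, numbered 10 with DESeq2, 7 without both libraries numbered 1, 7 with counts divided by the worth of 1 read pair, 7 with limma without a filter, 8 with limma and a pseudocount of 0.1, and 9 with 0.5 or 1. The share of members higher was 22.2% with DESeq2 (10.3% of all genes), 15.6% without both libraries (10.8%), 16.7% with divided counts (12.6%), 15.6% with limma without a filter (7.49%), 19% at 0.1 (12.1%) and 21.4% at 0.5 or 1 (12.2%), against 8.89% (11%) in the main analysis. The all-gene shares of DESeq2 and of limma without a filter take in every gene with any value, so they are not at the members' level. With each library left out, members higher numbered 4 to 8 and those lower 4 to 7. The share of members higher was 8.89% without MCT 2 (7.02% of all genes), without MCT 4 (7.93%) or without control 4 (8.11%). It was 17.8% without control 3 (8.91%). The share of members lower was 8.89% without MCT 2 (5.75%) and 15.6% without control 1 (8.35%). With calls also held to a log2 change of 1 or more in size there were 2 higher and 4 lower members, 618 higher and 298 lower genes, and 6 higher and 0 lower signalling genes. These are 13.3% of members, 5.48% of all genes and 6.52% of signalling genes. With each library left out, 1191 to 1946 genes were higher and 975 to 1730 lower, with both lowest counts without MCT 2. Signalling genes then numbered 7 to 13 higher and 5 to 9 lower, and limma without a filter gave 5 lower. The cause of these moves was not tested.

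The log2 difference of Il1r2 to Il1r1 ranged over 1.94 to 2.30 with each library left out. That of Il1rn to Il1b ranged over -0.18 to 0.46, turning without control 1, and that of Il18bp to Il18 over -0.82 to -0.34. With the replicate block (exact sign flips of pairs) Il1r2 to Il1r1 gave 2.06 at an exact p of 0.125, the smallest 4 pairs allow. The block fit gave 6 higher and 8 lower members (31.1% called, against 16.2% of all genes). Same-numbered libraries correlated at 0.111, 0.017, -0.017 and -0.085 in their deviations from the group means, and differently numbered ones at -0.079 to 0.075. The highest value, 0.111, belonged to MCT 1 and control 1, which also both had high airway markers. Whether same-numbered libraries share more than a number cannot be settled from these few values.

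Of the uncalled members, 7 turned sign; in the main analysis Il12rb1 was at -0.80 and the other 6 between -0.16 and 0.07. Without both libraries numbered 1, Il13ra1 was at 0.066, Il17ra at -0.039 and Il18rap at -0.46. Il18rap was at -0.0108 with DESeq2, -0.0107 with median-of-ratios scaling, -0.0012 with divided counts, -0.0031 without a filter, -0.0033 with limma without a filter, and -0.0049, -0.0033 and -0.0021 with limma at pseudocounts of 0.1, 0.5 and 1. With each library left out, Il12rb1 ranged over -1.06 to 0.036, Il13ra1 over -0.15 to 0.0995, Il15ra over -0.54 to 0.024, Il17ra over -0.051 to 0.15, Il18rap over -0.43 to 0.39, Il1rap over -0.0997 to 0.16 and Il1rl2 over -0.063 to 0.25.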

Other observations

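Members lie near each other in the rat genome (Rnor_6.0): 34 of the 73 fall into 12 clusters whose neighbours are no more than 500000 bases apart. On chromosome 9 the IL-1 receptor cluster runs from 46840992 (Il1r2) to 47258503 (Il18rap). Il1r2 was higher in MCT and its neighbour Il1r1 lower, while Il1rl2, Il18r1 and Il18rap, on the same strand, did not pass the test (edgeR adjusted p 0.867, 0.326 and 0.996). On chromosome 3 Il1rn, which was higher, ends a run of 6 members from Il36g onward, of which Il36a, Il36g and Il1f10 were listed at 0 in all libraries. On chromosome 1 Il4r was lower, and its neighbour Il21r did not pass (log2 fold change 0.39, edgeR adjusted p 0.498).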
